A study of Mus musculus with 2 samples.

Results

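Cytosolic ribosomal protein genes encode the protein subunits of the ribosomes that translate nuclear messages. They were chosen by symbol from the mouse annotation on build mm10 (GENCODE M21). A member was a protein-coding gene named Rpl or Rps plus a number with optional letters, Rplp0 to Rplp2, or Rpsa, with the kinase genes called Rps6k left out. The rule found 82 of 21911 protein-coding genes and used no measured value. Of the members, 43 encode large-subunit proteins, 30 small-subunit proteins, 3 the stalk of the large subunit, and 6 are paralogs, extra copies of other members. Rps3a1, Rpl7l1 and Rpl22l1 fall outside the rule because a number follows the letters of their symbols, and Fau and Rack1, among others, because of their names.

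The measurements were DNase-seq of gastrocnemius, the calf muscle, from B6CASTF1/J males at 14 days of age, an F1 cross of C57BL/6 with wild-derived CAST. There was 1 group with 2 biological replicates and no contrast, so values are given per library, replicate 1 and then replicate 2. The labels carry the words 3x Males and give both libraries the same donor entry, so the number of animals behind a library is not known and the spread between libraries may in part be technical. DNase-seq counts cuts of the enzyme DNase I, which falls where chromatin is open. A peak is a stretch of dense cutting, and a footprint is a short stretch within it that is cut less than its surroundings. The peak lists held 82498 and 88198 peaks, and the footprint lists 320456 and 384435 footprints. Read depth is not known from these files, since they hold no read counts. All 10 gastrocnemius marker genes, among them the creatine kinase gene Ckm, had a promoter peak in both libraries. Of the markers of other cell types, 2 of 2 fibroblast genes, 1 of 2 endothelial genes, 1 of 2 Schwann cell genes, and neither of the 2 leukocyte nor the 2 satellite cell genes did. In a whole tissue, more cells with an open promoter and more cutting per cell cannot be told apart.

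A ribosome is built from a small subunit, which reads the message, and a large subunit, which joins the amino acids. Each needs about equal amounts of its proteins, and the genes for them are scattered over the chromosomes and active in almost every cell. In mammals their messages begin with a run of pyrimidines, the TOP motif, through which growth signals set their translation, and many of their introns encode small nucleolar RNAs (snoRNAs) that guide the modification of ribosomal RNA. In muscle, ribosome supply is one of the things that limits growth.

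Nearly all members had open promoters. A gene was called open if a peak of the strict list overlapped the 1 kb on either side of any of its annotated starts in both libraries. This held for 79 of 82 members, against 61.7% of all protein-coding genes. All 43 large-subunit genes, all 30 small-subunit genes and all 3 stalk genes were open, and all 3 closed members were paralogs. No member was open in 1 library only, and 770 of the 21829 other genes were. At so small a share few members would be, so this does not set the members apart. The members sit on 19 chromosomes, 14 of them on chromosome 7.

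The closed members are extra copies of other members. Rpl10l on chromosome 12 (main start at base 66284401) and Rpl39l on chromosome 16 (10170226) are copies of Rpl10 and Rpl39 that are used in male germ cells. Rps27rt on chromosome 9 (114982739) is a retrogene of Rps27. Rpl39l and Rps27rt had no peak in the permissive list of either library. Rpl10l had a permissive peak with a signal of 0.262 in replicate 1 and none in replicate 2. Copies that resemble their parents can lose reads to a filter on multiply mapped reads, and the part of this in the missing peaks was not tested.

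Among the open paralogs, Rpl3l, the copy of Rpl3 used in striated muscle, stood near the bottom of the members and Rpl36al near the top. Rpl3l had a signal of 3.63 and 1.17, and its parent Rpl3 had 10.2 and 8.04. Signal here is the authors' value for the strongest promoter peak, on a scale that the sources do not state, so genes were compared with each other within a library. Rpl3 thus stood above Rpl3l in each library. The strongest peak of Rpl3l lay at its second annotated start, 4865 bases into the gene, while its main start had a peak of 3.05 and 1.04. Rpl36al, the autosomal copy of the X-linked Rpl36a, had 16.4 and 9.38, and Rpl36a had 5.19 and 2.73. Rps27l, a copy of Rps27 that p53 induces, had 11.0 and 4.55, and Rps27 had 4.10 and 2.57. In both of these pairs the copy had the stronger peak in each library. Mgat2 starts on the other strand within 1 kb upstream of Rpl36al, and Rab13 does so at Rps27. The peaks of Rpl36al and Rps27 may serve those neighbours too and cannot be assigned to 1 gene. Across the paralogs the range thus ran from no peak to the second highest signal percentile of all members.

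To place the members among all genes, each gene's signal was turned into a percentile among the 21911 protein-coding genes of its library, with closed genes tied at the bottom. The median over members was 77.9 and 82.6 in the libraries. Each gene's percentile was then averaged over libraries, and the median of these means was 80.9 for members, against 49.98 for all other genes. Among genes open in both libraries the medians of the mean percentile were 81.5 for the 79 members and 69.3 for the 13435 others. In signal, the open members had medians of 8.48 and 5.42, against 6.13 and 3.50 for the other open genes. The members ranged from 2.02 to 21.3 in replicate 1 and from 1.17 to 13.6 in replicate 2, and so overlapped the other open genes over most of the range. Above the median of all open promoters lay 62 of the 79 open members, or 78.5%. A mean percentile of 90 or more was reached by 22 members, against 9.5% of all genes. By mean percentile no open member stood below 50, the middle of all genes. Within a library, Rpl4 (48.7) and Rpl23a (49.8) did so in replicate 1 and Rpl3l (48.2) in replicate 2.

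**Figure D1:**
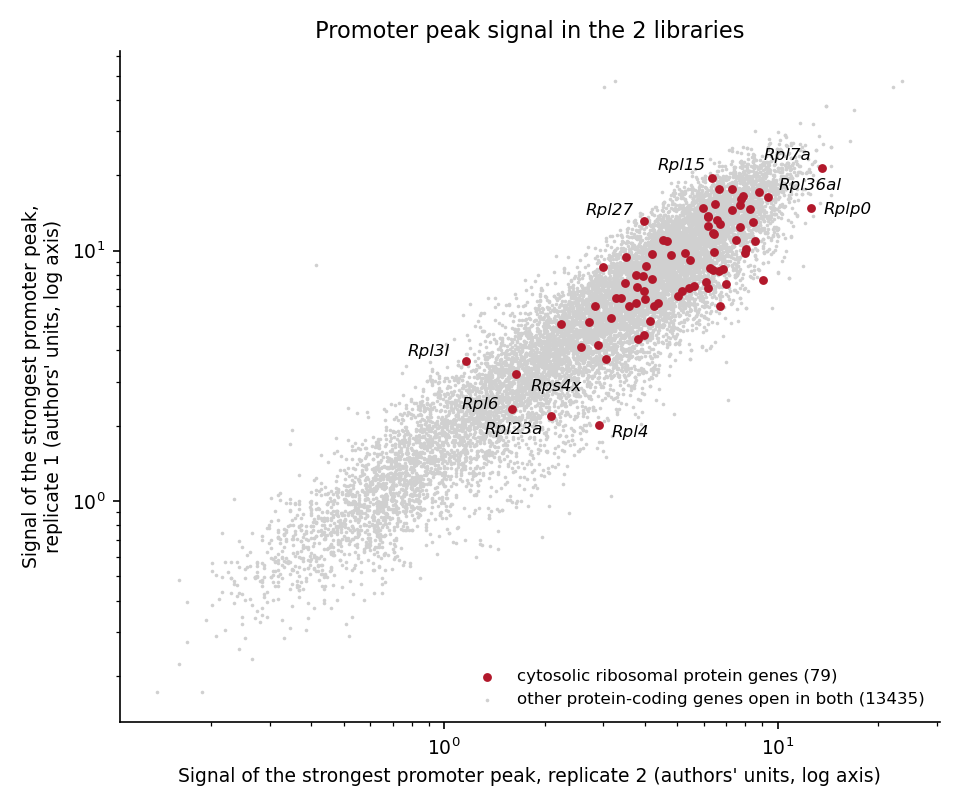
Signal of the strongest promoter peak in replicate 1 (vertical) against replicate 2 (horizontal), both in the authors' units on log axes. Red points are the 79 open cytosolic ribosomal protein genes and grey points the 13435 other genes open in both libraries. The red points lie in the upper part of the grey cloud, with Rpl7a at 21.3 and 13.6 at the top and Rpl6, Rpl23a and Rpl4 at the lower end.

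Rpl7a, a large-subunit gene on chromosome 2 (main start 26910764), had the strongest promoter. Its signal was 21.3 and 13.6, at a mean percentile of 99.6 ± 0.526 (SD, n = 2 libraries, as for each percentile below). It was followed by Rpl36al at 97.3 ± 1.66, and by Rpl23 at 97.3 ± 0.634, with signals of 17.1 and 8.81. Rplp0, the base of the stalk that calls in translation factors, had 14.8 and 12.6 and stood at 97.0 ± 4.09. The large-subunit genes Rpl27a, Rpl37 and Rpl18 stood at 96.0 ± 0.400, 95.5 ± 2.49 and 95.5 ± 0.365. For Rpl18 the strongest peak lay at different starts in the 2 libraries, so its small SD does not compare the same peak. At its main start alone the signal of Rpl18 was 16.1 and 5.38. Rps19, whose human counterpart is mutated in the inherited anaemia named after Diamond and Blackfan, was the highest small-subunit gene at 95.1 ± 2.14, with 14.6 and 8.28. Below Rpl7a, each neighbouring pair in this order differed by less than the larger of its 2 SDs.

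The lowest open members were Rpl6 at 51.5 ± 1.36, Rpl3l at 52.8 ± 6.61, Rpl23a at 53.4 ± 5.09, Rps4x at 54.1 ± 1.71 and Rpl4 at 56.4 ± 10.9. Rpl6, a large-subunit gene, had a signal of 2.34 and 1.59, close to the middle of all genes. Rpl23a, whose protein sits at the mouth of the exit tunnel, had 2.19 and 2.09. Rpl4, whose protein lines that tunnel, had 2.02 and 2.91. For all 5 the ranges of mean ± SD overlap. The spread at members was wider than elsewhere, with a median SD of the percentile of 4.01 at open members and 2.73 at other open genes.

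By subunit, the median mean percentile was 79.5 for the large subunit, 83.9 for the small subunit and 82.8 for the stalk. The ranges of the subunits overlapped almost fully. Rplp1 and Rplp2, which form the flexible arms of the stalk on Rplp0, stood at 82.8 ± 0.195 and 75.3 ± 8.89, and Rpsa, a small-subunit protein also known as the laminin receptor precursor, at 89.2 ± 0.618.

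**Figure D2:**
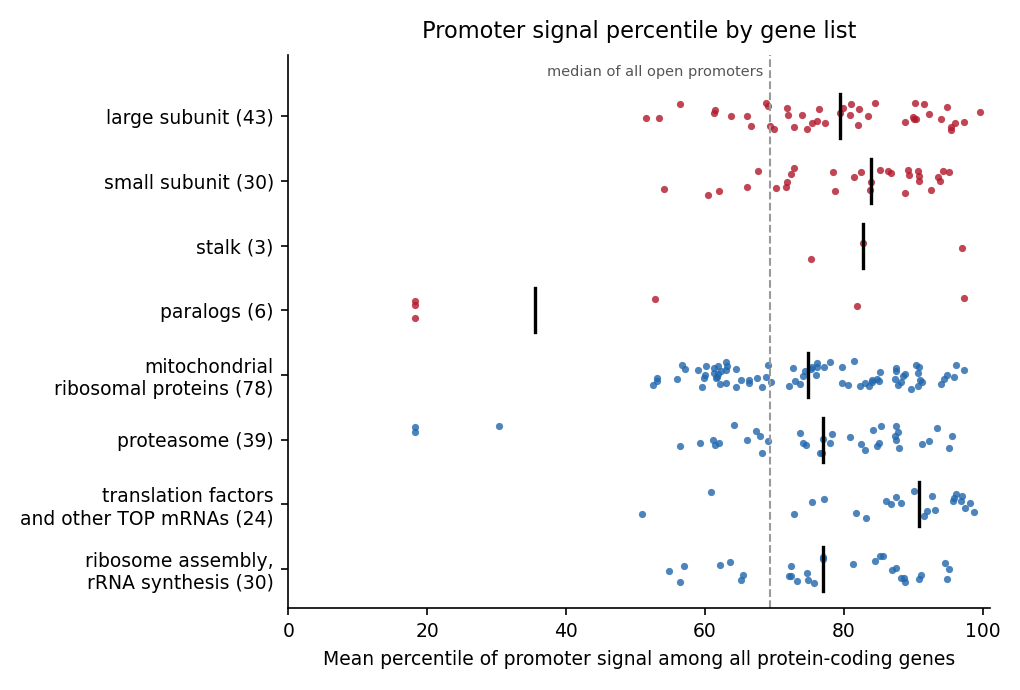
Mean percentile of promoter signal over both libraries, 1 point per gene, with the median of each list as a black bar and the median of all open promoters as a dashed line. Large-subunit, small-subunit and stalk genes (red) all lie above 50, the paralogs split between 18.3 and 97.3, and the 4 comparison lists (blue) overlap the red range.

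Other genes of protein synthesis and turnover lay in the same part of the scale. Lists chosen with earlier results known held 78 mitochondrial ribosomal protein genes, which supply the separate ribosomes of mitochondria, 39 proteasome genes, 24 translation factors and other TOP messages, and 30 genes of ribosome assembly and ribosomal RNA synthesis. Of these, 78 of 78, 36 of 39, 24 of 24 and 30 of 30 were open. Their median mean percentiles were 74.8, 77.1, 90.9 and 77.0, against 80.9 for the members. The list of translation factors included the elongation factor gene Eef2 at 98.2 and its own low end in Eef1a2, the muscle and nerve form of elongation factor 1A, at 50.9. Since these are counts and medians of chosen lists, they do not show that any list differs from another. Ribosomal genes outside the symbol rule were open too. Fau, which encodes a small-subunit protein fused to a ubiquitin-like one, stood at 96.2, Rps3a1 at 94.0, Rpl22l1 at 91.5, Rpl7l1 at 72.8 and Rack1 at 60.9.

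The 4 members on chromosome X stood low among the members. Rpl10 had a signal of 6.03 and 2.84, Rpl36a 5.19 and 2.73, Rpl39 5.10 and 2.23, and Rps4x 3.21 and 1.64. Their mean percentiles ran from 54.1 to 66.01, and 67 of the 75 open autosomal members stood above the highest of them. Open promoters in general showed the same order. The median mean percentile was 53.4 over the 436 open genes of chromosome X and 70.3 over the 13074 open autosomal genes. Males carry 1 copy of chromosome X, and the part of copy number in these values was not tested. Rpl10, which joins late in the maturation of the large subunit, still held 8 footprints shared by both libraries, among the most of any member.

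Peaks at members were short and centred near the start. The strongest peak had a median width of 200 bases in replicate 1 and 220 in replicate 2, the same as for other open genes. It ranged over members from 120 to 426 bases in replicate 1 and from 140 to 460 in replicate 2. By mean over libraries the widest were those of Rpl23a with 426 and 440 bases, Rps21 with 340 and 400, Rpl3l with 240 and 440, Rpl13a with 220 and 440, and Rps14 with 200 and 460. In the last 3 the peak was wide in replicate 2 and closer to the median in replicate 1. By mean over libraries the narrowest were Rpl36al with 160 in both and Rps15 with 180 and 140, and Rpl17, with 180 and 160, tied with Rpl23, Rpl37a and Rpl5. In replicate 1 alone the narrowest was Rpl29 with 120 bases, which had 240 in replicate 2. Rpl36al thus joined one of the narrowest peaks to one of the highest signals. Open genes were cut into 10 equal bins by mean percentile. Set beside other open genes of its bin, the median member had 1.00 and 0.917 times their median width. Of the 79 open members, 40 and 50 had a single promoter peak, or 34 in both libraries at once, where 36.3% of all open genes did, and 23 had more than 1 in both, against 45% of all open genes. Rpl7 had 4 promoter peaks in each library. The centre of the strongest peak lay at a median of 27.5 and 12.5 bases upstream of the main start, against 27.5 and 26.5 upstream at other open genes.

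**Figure D3:**
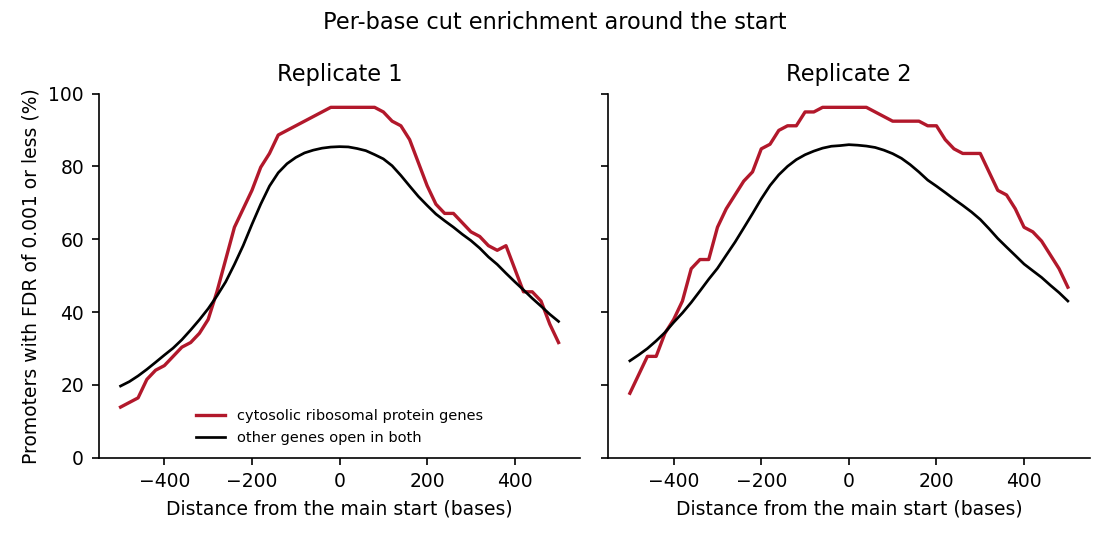
Share of promoters in which the base at a given distance from the main start has a false discovery rate (FDR) for DNase cutting of 0.001 or less, for the 79 open members (red) and other open genes (black), in each library. At the start itself the share is 96.2% of members in both libraries, and the red curve lies above the black one in the centre and below it at the left edge, where it reads 13.9% and 17.7%.

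The false discovery rate of cutting, which the authors give per base, traced the same shape. At the main start 96.2% of open members had a base at an FDR of 0.001 or less in both libraries, against 85.4% and 86.0% of other open genes. The share was lower on the upstream side, at 13.9% and 17.7% of members 500 bases upstream, against 19.7% and 26.6% of others. On the downstream side 31.6% and 46.8% of members still passed at 500 bases, against 37.4% and 43.0% of others. The main start is the annotated start with most transcripts, and for Rps14, Rpl17, Rps10 and Rpl3l it lay over 1 kb from the strongest peak. At those members the profile reads bases away from the strongest peak. At Rpl18 the strongest peak was centred at −136.5 bases from the main start in replicate 1, but at a second group of starts in replicate 2, 2583.5 bases downstream.

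Footprints were found at nearly all members. A footprint shared by both libraries, that is, overlapping by at least 1 base, lay within 1 kb of the main start at 77 of 82 members, against 59.3% of all protein-coding genes. The 5 without one were the 3 closed paralogs and Rpl17 and Rps10. With any annotated start in place of the main one, Rpl17 and Rps10 also had shared footprints, which made 79 of 82, against 61.9% of all genes. The open members held a median of 6 and 9 footprints and 5 shared ones, against 7 and 8 and also 5 at other open genes. Of the 533 footprints at members in replicate 1, 384 or 72.0% had a partner in replicate 2, against 68.4% at other open genes. A member's footprint was 12 and 11 bases long in the median, the same as elsewhere, and the longest reached 47 and 51 bases.

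Rpl7 was among the members with the most shared footprints, with 10, and Rps19 had 9 and Rpl10 had 8. Rpl27, Rps23, Rps26 and Rpl13a also had 8. Rpl7 held 16 and 18 footprints in the libraries and Rps19 held 15 and 13. Rpl7 and Rpl10 are not among the strong promoters, at percentiles of 69.9 and 66.01, so a high signal was not needed for many footprints. At the other end Rpl3l had 3 and 2 footprints and shared 1 around its main start, which lies away from its strongest peak. Around any of its annotated starts it shared 4. Within the same signal bin the median member had 0.833 times as many shared footprints as other open genes.

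The shared footprints crowded more closely around the start at members than elsewhere. Of 384 shared footprints, 204 or 53.1% had their centre within 100 bases of the main start, against 43.7% of 65363 at other open genes. The median centre lay at −22.0 bases, with quartiles at −115 and 58.4, against −32.5 with quartiles at −142 and 85. The members' median depends on the start used, at −43.0 bases from RefSeq starts and −35.2 from the nearest annotated start. It was −10.0 over all footprints of replicate 2 alone. For other genes the median is given only for shared footprints and main starts, so the order under the other settings is not known. Footprints of 1 promoter share their source, so these are shares over footprints and not over independent promoters. Between the start and 100 bases downstream lay 93 footprints, or 24.2%, against 18.1%.

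**Figure D4:**
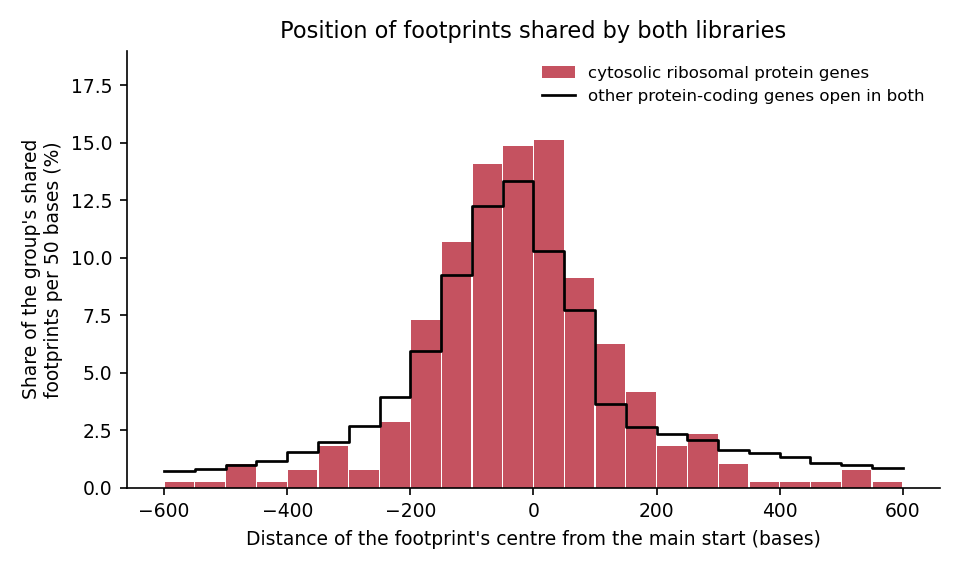
Distance of the centre of each shared footprint from the main start, as a share of all shared footprints per 50 bases, for members (red bars, 384 footprints) and other open genes (black line, 65363 footprints). The red bars are higher than the line in the 4 bins within 100 bases of the start, where they hold 53.1% of footprints against 43.7%.

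The 8 DNA words searched are short sequences known from promoters, read on both strands from 250 bases before to 50 bases after the main start. ETS factors such as GABP bind CCGGAAG, YY1 binds AAGATGG, SP and KLF factors GGGCGG, NRF1 GCATGCG, E-box factors CACGTG, CREB-like factors TGACGT, NF-Y CCAAT, and TATA-binding protein TATAAA. The ETS letters stood at 24 of 82 members (29.3%), against 11.1% of all protein-coding promoters and 16.4% of those of open genes. YY1 letters stood at 10 members (12.2%), against 6.25% and 6.74%. SP/KLF letters stood at 40 (48.8%), against 44.8% of all and 63.3% of open genes, so their share at members was between the others. For NF-Y it was 26 members (31.7%), against 38.7% and 37.8%. CRE letters were held by 13 members (15.9%), against 8.72% of all and 11.5% of open genes, and NRF1 letters by 7 (8.54%), against 4.76% and 6.36%. E-box letters were held by 9 (11.0%), against 7.8% and 9.87%. TATA letters were held by 8 members (9.76%), fewer than the 12.5% of all genes but more than the 7.04% of open genes. These are descriptions of letters, not of bound factors.

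Annotated starts of these genes scatter, and 23 members have a RefSeq start over 100 bases from the main start. The search was therefore repeated in 150 bases on either side of the centre of the strongest peak of replicate 1, a window chosen after the data were seen. There the ETS letters stood at 33 of 79 open members (41.8%), against 18.9% of all open genes, and the YY1 letters at 16 (20.3%), against 7.58%. SP/KLF letters stood at 49 (62.0%), against 72.6%, and TATA letters at 8 (10.1%), against 4.15%. For each of the 8 words the member share stood on the same side of the share of open genes in both windows, lower for SP/KLF and NF-Y and higher for the others.

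**Figure D5:**
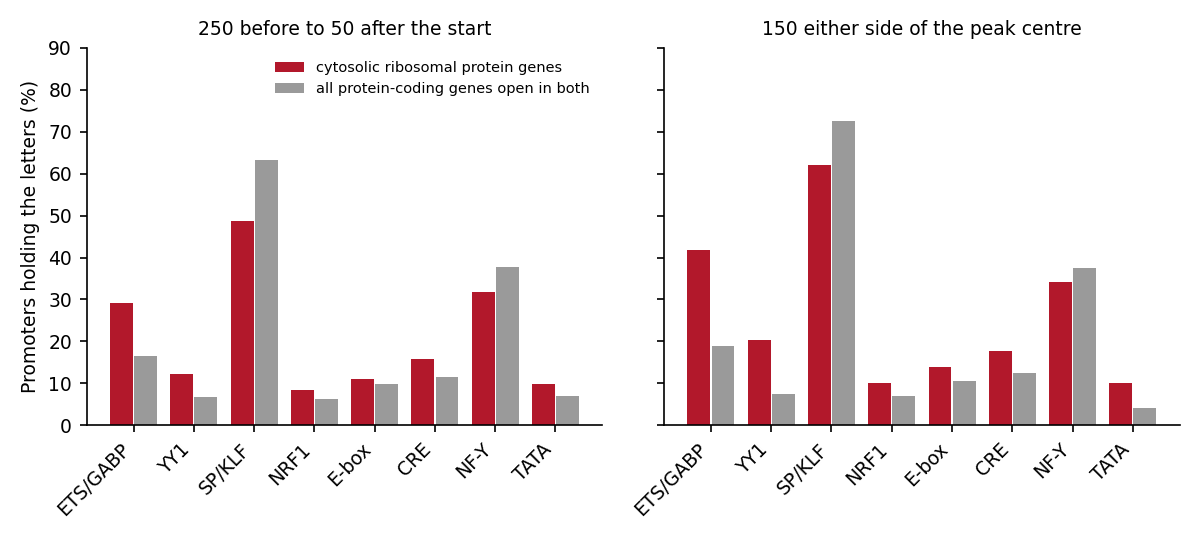
Share of promoters that hold each word on either strand, for cytosolic ribosomal protein genes (red, 82 on the left and 79 on the right) and all protein-coding genes open in both libraries (grey), in the window around the main start (left) and around the peak centre (right). ETS/GABP stands at 29.3% against 16.4% on the left and 41.8% against 18.9% on the right, while SP/KLF is lower at members in both.

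Some of these words lay inside footprints of both libraries, judged by their central base. This held for 9 of 29 ETS matches at members (31.0%), against 30.6% of matches at other open genes, and for 36 of 66 SP/KLF matches (54.5%), against 42.9%. For CRE it was 10 of 22 (45.5%), against 53.6%, where the full palindrome counts once per strand. NRF1 had 4 of 8, against 73.6%, and NF-Y 6 of 37 (16.2%), against 18.6%. No E-box match of 9 was in a footprint of both libraries, against 22.5% elsewhere. YY1 had 1 of 10, against 16.0%. The YY1 matches at Rpl23a, Rpl37 and Rps15 overlap the start codon, whose ATG is part of the word. TATA letters were the other way round, with 6 of 9 matches (66.7%) in footprints of both libraries, against 8.19% at other open genes. The TATA counts are small, and this word was singled out after its values were seen.

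The matches that carry these counts are shown as 30 bases from the GRCm38.p6 genome of RefSeq, read 5′ to 3′ along the gene, with the matched word in capitals. Positions count from 1 at the main start and downward from −1 before it, and give the first base of the word. The first 6 members have ETS or YY1 letters in footprints of both libraries. Rplp1 and Rps7 are among the others that do.
Rps21, −86, chr2:180257280-180257309, plus strand: ctttctttgcaCCGGAAGcggaagttaaaa
Rps21, −24, chr2:180257342-180257371, plus strand: agtaccctgacCCGGAAGcacttaccgagg
Rps2, −127, chr17:24719925-24719954, plus strand, word on the other strand: atttatacgtcCTTCCGGctggtgtagggc
Rps18, −145, chr17:33955805-33955834, minus strand: gagaaggccgaaCCGGAAGttatagctccg
Rpl15, 20, chr14:18271031-18271060, minus strand: tacaatgccccaCCGGAAGgagggtcgccg
Rpl6, 33, chr5:121204502-121204531, plus strand: ttgcttatagaCCGGAAGccgctgccttag
Rps27, −71, chr3:90213705-90213734, minus strand, YY1 letters: gaagaccttccgAAGATGGcgaagcaacac
The TATA letters below lie in footprints of both libraries.
Rplp0, 18, chr5:115559472-115559501, plus strand: gcctggttctccTATAAAaggcacacgcgg
Rps2, 18, chr17:24720068-24720097, plus strand: ttcttggagcacTATAAAttgtcccttccg
Rps28, 38, chr17:33824508-33824537, minus strand: gtcagagccgacTATAAAaggcatcccctg

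Rps21 was the only member with ETS letters at 2 places in footprints of both libraries. Its signal was 14.8 and 5.96 and its peak one of the widest. Rpl15, with ETS letters just after the main start, had 19.5 and 6.36 and Rps2 had 15.4 and 6.47. Rps18 had 8.51 and 6.28, and Rpl6, the open member with the lowest mean percentile, 2.34 and 1.59. ETS letters in a footprint were therefore found at both strong and weak member promoters. Nkiras1, Snhg9 and Vps52 start on the other strand within 1 kb upstream of Rpl15, Rps2 and Rps18. The signals and words of these members thus cannot be assigned to 1 gene. The ETS stretches printed for Rps2 and Rps18 also overlap an annotated exon. The TATA letters of Rplp0, Rps2 and Rps28 lay after the annotated start, and of the 6 TATA matches in footprints of both libraries 5 lay on that side. A TATA box stands upstream of the start it serves, and whether transcription begins further downstream at these genes was not measured here.

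Longer stretches upstream of the start show where footprints of both libraries fall, with those bases in capitals. They hold no exon of any gene in GENCODE or RefSeq, and come from Rps21 and from the members with the highest percentiles that have at least 60 exon-free bases there.
Rps21, chr2:180257227-180257376, plus strand: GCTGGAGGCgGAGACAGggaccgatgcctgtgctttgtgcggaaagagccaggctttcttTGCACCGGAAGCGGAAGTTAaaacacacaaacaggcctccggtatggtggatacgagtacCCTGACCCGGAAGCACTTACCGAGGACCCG
Rpl36al, chr12:69184084-69184156, minus strand: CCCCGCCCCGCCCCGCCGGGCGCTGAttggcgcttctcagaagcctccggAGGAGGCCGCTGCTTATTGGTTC
Rpl23, chr11:97782440-97782589, minus strand: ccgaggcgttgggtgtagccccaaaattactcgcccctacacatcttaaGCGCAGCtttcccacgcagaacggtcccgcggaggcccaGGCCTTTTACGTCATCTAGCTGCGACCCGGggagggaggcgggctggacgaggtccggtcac
In Rps21 the capitals cover 66 of 150 bases, including both ETS words. In Rpl36al they cover 49 of 73 bases, with overlapping SP/KLF words at the upstream end and an NF-Y word next to the start. Rpl23 has 37 of 150 bases in capitals, and its CRE word lies among them.

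The libraries differed most at a few members. The ratio of replicate 1 to replicate 2 signal had a median of 1.75 over open members, against 1.83 over all open genes, or 0.956 of that value, and ran from 0.693 to 3.30. It was highest at Rpl27 (13.1 and 3.96, ratio 3.30), Rpl3l (3.12), Rpl15 (3.07), Rpl22 (2.89) and Rplp2 (2.70). Among the lowest ratios were those of Rpl4 (2.02 and 2.91, ratio 0.693), Rpl38 (0.897), Rpl23a (1.05) and Rpl5 (1.05), whose protein binds the small 5S ribosomal RNA with that of Rpl11. Rpl4 and Rpl38 were among the members with a ratio under 1. Across the 79 open members Spearman's rho between the libraries was 0.774, against 0.924 across the other open genes. Signals of the other open genes cover a wider range, and the part of this in the lower rho was not tested. Replicate 1 was sequenced on 2 instrument models, and the part of this in the ratios was not tested. In percentile, 48 of 79 members (60.8%) stood higher in replicate 2, against 46.8% of all open genes.

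In sequence, members were rich in CpG for their base composition. In the 1 kb around the main start the open members had a median GC content of 57%, against 59.1% at other open genes, and an observed over expected CpG ratio of 0.807, against 0.726. The ratio was higher still at open translation factors and other TOP messages (0.866) and assembly genes (0.814). It was lower at open proteasome genes (0.763) and mitochondrial ribosomal protein genes (0.724). A run of at least 5 pyrimidines at the main start was found at 31 of 82 members, against 23.0% of all genes, with a median run of 4 bases against 3. A run was counted if it covered the main start or began within 5 bases of it. Runs that the annotation misplaces by more than that are not counted, so this is a description of annotated starts.

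Many members were also host genes of snoRNAs, and some had a close neighbour. At least 1 snoRNA gene lay inside 29 of 82 members (35.4%) on the same strand, against 1.27% of all genes, and together they held 56. Rpl4 held the most with 5, and Rpl13a held 4. Such hosts were 29.2% of translation factors and other TOP messages, 23.3% of assembly genes, 2.56% of proteasome genes and 0% of mitochondrial ribosomal protein genes. A divergent neighbour, a gene on the other strand that starts within 1 kb upstream, was found for 12 members (14.6%), against 10.7% of all genes. In each of the comparison lists the share was higher, from 17.9% of proteasome genes to 30% of assembly genes. Of the members' neighbours 9 are protein-coding, where 6.96% of all genes have such a neighbour. Among the 9 are Med22, a Mediator subunit gene beside Rpl7a, and Ndufa7, a respiratory complex I gene beside Rps28. Mgat2 beside Rpl36al and Rab13 beside Rps27 are others. A peak between such a pair serves as promoter peak for both genes, so the signal of these members cannot be assigned to 1 of them. Open regions outside all promoters, present in both libraries and within 50 kb of a start, numbered 4 for the median member, against 2 for all genes, and 4 members had none, against 26.6% of all genes. The median was also 4 for proteasome genes. It was 3 for mitochondrial ribosomal protein genes and for translation factors and other TOP messages, and 2 for assembly genes. Among these, 6 of 39, 8 of 78, 1 of 24 and 5 of 30 genes had none. Among the members, the highest counts were as follows. Rpl19 had 12, Rpl29 had 11, and Rpl14, Rpl30 and Rplp0 had 9 each. These regions were assigned by distance and not by contact.

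Pseudogenes of the members were almost all closed. Ribosomal protein genes have left many processed copies in mammalian genomes, and the annotation lists 293 by symbol for 59 of the members, with most for Rpl31 (24) and Rps12 (23). Of the 293, 9 had a peak within 1 kb of their start in both libraries, or 3.07%, against 79 of 82 members, and 4 had one within 250 bases. The strongest, Rpl35a-ps3 with 6.54 and 3.45 and Rpl29-ps2 with 5.46 and 2.57, each lay within 2500 bases of a protein-coding start. Without such a neighbour, 7 of 283 were open, led by Rpl38-ps1 with 2.25 and 3.69, Rpl34-ps1 with 1.75 and 2.16 and Rpl5-ps2 with 1.49 and 1.99. In replicate 1 the signals of Rpl34-ps1 and Rpl5-ps2 lay below the lowest open member, at 2.02. In replicate 2 both lay above the lowest open member, at 1.17. The 6 protein-coding genes that carry pseudogene symbols, such as Rpl9-ps1, had no peak in either library. As for the closed paralogs, the part of multiply mapped reads in this was not tested.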

How the data were processed

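DNase-seq peaks, footprints and per-base false discovery rates of 2 libraries were used as deposited, without changing their values. Per the file headers and notes, each file was made from the alignment of its own library to mm10. The authors' signal per peak has no stated scaling, so genes were ranked inside each library, and ratios between libraries were set against the median ratio. The deposited FDR values (q-values per base) are listed up to 0.05, and the authors' footprint threshold is 0.01 throughout. Aligner, callers, their versions, and the treatment of CAST alleles and multiply mapped reads are not stated in the labels or file notes.

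Each library has 2 peak lists. The list with fewer peaks, here called strict, was the main one, and the other, with 138117 and 139545 peaks, is called permissive. Genes and starts came from GENCODE M21 (basic set), 1 gene per symbol, without the mitochondrial genome. The main start is that of most protein-coding transcripts, with ties going to the most upstream. Members, gene lists, words and windows were chosen with earlier results of these data known. Some members that the naming rule selects are not reported here. The rule took all paralogs, stalk genes and closed members, and the extremes of signal, width, footprints, ratio, snoRNA and distal counts, the strongest members with ETS or YY1 letters in footprints, and the strongest open pseudogenes. With 1 group no test between samples was possible, and none over genes was run. Footprint, percentile and word searches were tested on simulated data. Of the members, 62 have an entry in the RefSeq promoter table (GRCm38.p6), and sequences were taken for these only. Python 3.11.15 with NumPy 2.4.6, pandas 2.3.3, SciPy 1.17.1 and Matplotlib 3.10.9 was used.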

Additional observations from a re-analysis of the deposited data

How the results depend on the processing

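No paired analysis was possible because there was only 1 group. Of 65 alternatives, 59 left their result within 1.5 times a count or ratio, or within 1 SD between libraries for other values. The 6 that moved it were as follows. Summing all peaks of a promoter lowered the median percentile of the members to 76.7. The median footprint offset was −43.0 bases from the RefSeq start, and −35.2 bases from the nearest annotated start, an alternative chosen after seeing the data. YY1 letters stood at 16 members around the peak centre, also chosen after seeing the data. With a window of 250 bases, 4 pseudogenes were open. With 1 library left out, the median footprint offset ranged from −18.5 to −10.0 bases, the median percentile from 77.9 to 82.6, the median width from 200 to 220 bases, the open members stayed at 79 and the members with a footprint at 77. Open members numbered 78 with a window of 250 bases and 79 with 2500 bases, the permissive list, or peaks at or above the median signal. The cause of these shifts was not tested. Read depth, which is not known here, limits which footprints can be called.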
